A study of Rattus norvegicus with 6 samples.

Results

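Cytochrome c oxidase subunits that exist in muscle and ubiquitous isoforms were followed in cultured neonatal rat heart cells after knockdown of uc.323, a transcribed ultraconserved region whose DNA is identical in several mammals. The set holds 10 genes, chosen by name: Cox4i1, Cox4i2, Cox6a1, Cox6a2, Cox7a1, Cox7a2, Cox7a2l, Cox8a, Cox8b and Ndufa4, out of 15168 named genes on the array. Probes were assigned by transcript accession. In all, 9 of the 10 genes had a probe, with 10 probes between them, and all 10 probes were well above background on all 6 arrays and none was saturated. No probe was matched to Cox7a1, the muscle isoform of subunit 7a, so it was not analysed here.

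Both groups were primary ventricular myocytes of male Sprague-Dawley rats aged 1 to 2 days, preplated to remove fibroblasts and grown with 5-bromodeoxyuridine. After 36 h of culture, 50 nmol/L of either si-uc.323, 1 siRNA against uc.323, or si-scramble, a scrambled siRNA, was given with Lipofectamine RNAiMAX in serum-free medium for 3 h. The cells were then kept without serum for 21 h, and RNA was taken 24 h after transfection. The labels call the 3 samples of a group independent experiments, each read on 1 single-colour Agilent array, and the level of uc.323 itself was not analysed here. Which samples shared a litter is not stated, and the p-values reflect only how far these samples spread. The comparison belongs to a study of genes downstream of uc.323 in cardiomyocyte hypertrophy.

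Cytochrome c oxidase, complex IV of the respiratory chain, passes electrons from cytochrome c to oxygen and pumps protons across the inner mitochondrial membrane. Its catalytic core is encoded by mitochondrial DNA, and nuclear-encoded subunits surround that core and tune its activity. In rodents the adult heart and skeletal muscle carry the muscle isoforms of subunits 6a, 7a and 8 (Cox6a2, Cox7a1 and Cox8b), while most other tissues, and the heart before birth, rely more on the ubiquitous isoforms Cox6a1, Cox7a2 and Cox8a. Subunit 4 has a ubiquitous isoform, Cox4i1, and a lung and hypoxia isoform, Cox4i2. Ndufa4 was first assigned to complex I and is now counted as a subunit of complex IV. Cox7a2l is a relative of subunit 7a that joins complexes III and IV into supercomplexes.

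The RefSeq promoter table of build GRCr8 has entries for 8 of the 10 genes (not for Cox4i2 and Cox6a1). The 250 bases before the annotated start were searched on both strands for the MEF2 consensus motif, the E-box CANNTG, the NRF1 consensus motif, the ETS core CCGGAA and the TATA box TATAAA. No overlap between different motifs was found in the 3 sequences below. They are given because they belong to both isoforms of subunit 8, where the largest difference between isoforms was measured, and to the muscle isoform of subunit 6a. They are written 5′ to 3′ along the gene with every motif match in capitals. Cox8b lies at chr1:205408274-205408523, Cox8a at chr1:213833624-213833873 and Cox6a2 at chr1:192219717-192219966, all on the minus strand.
Cox8b: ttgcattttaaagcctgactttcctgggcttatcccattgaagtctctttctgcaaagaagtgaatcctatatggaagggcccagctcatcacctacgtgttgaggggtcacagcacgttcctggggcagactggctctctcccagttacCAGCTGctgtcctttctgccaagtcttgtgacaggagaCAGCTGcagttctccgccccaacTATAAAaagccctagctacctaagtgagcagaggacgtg
Cox6a2: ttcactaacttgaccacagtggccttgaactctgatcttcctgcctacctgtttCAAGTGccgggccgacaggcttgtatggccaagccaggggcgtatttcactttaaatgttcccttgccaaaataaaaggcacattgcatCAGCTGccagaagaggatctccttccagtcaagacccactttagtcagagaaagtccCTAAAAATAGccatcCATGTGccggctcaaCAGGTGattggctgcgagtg
Cox8a: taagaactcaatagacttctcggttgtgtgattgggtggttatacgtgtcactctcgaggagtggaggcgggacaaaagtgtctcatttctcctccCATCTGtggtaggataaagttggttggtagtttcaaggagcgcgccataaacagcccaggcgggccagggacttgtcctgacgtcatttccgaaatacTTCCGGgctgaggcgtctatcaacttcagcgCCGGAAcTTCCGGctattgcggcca

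The window of Cox8b held a TATA box 39 to 34 bases before the start and 2 E-boxes, both reading CAGCTG. The window of Cox6a2 held 1 MEF2 match, CTAAAAATAG, 50 to 41 bases before the start, and 4 E-boxes. The window of Cox8a held 3 ETS cores, all within 56 bases of the start, and 1 E-box. The third muscle isoform, Cox7a1, held 1 E-box and no other motif. Of the other ubiquitous isoforms, Cox4i1 held 1 ETS core and 1 E-box, and Cox7a2 held 1 ETS core and 3 E-boxes. Thus an E-box was found with both kinds of isoform, and the MEF2 motif and the TATA box with 1 muscle isoform each. Over all 33469 windows of this length in the table, 2.96% held the MEF2 motif, 65.5% an E-box, 12.6% an ETS core, 12.9% a TATA box and 1.06% the NRF1 motif, which none of the 8 genes held. The Ndufa4 window held none of the 5 motifs. A match is a description of letters, not a bound site.

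In the comparison of si-uc.323 with si-scramble, 2 of the 9 measured genes fell, Cox8b and Ndufa4, and none rose (limma, Benjamini-Hochberg adjusted p under 0.05 over 19921 features). Over all features 2.43% were called lower and 3.15% higher, so that 56.4% of the 1113 called features were higher, against 38.3% of 1304 with each array centred on its median instead. All 9 genes had a negative log2 fold change, with a median of -0.34 (Cox7a2l alone turned positive under 2 of the scalings tried, normexp and cyclic loess), while 45.1% of all features had a negative value and the median of all features was 0.04. For 7 of the 9 genes the 3 si-uc.323 arrays lay wholly below the 3 si-scramble arrays, which was so for 16.5% of all features. No gene of the set lay wholly above, as 18.6% of all features did, and 35.1% of all features were separate in either direction. These counts describe the set and carry no test of it. In bulk RNA, fewer cells of a type and less RNA per cell cannot be told apart. Values below are log2 intensities relative to the 75th percentile of their array, so each is a distance from that array's own reference point, and probes of different genes are not compared in level.

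The arrays lay on 2 slides, with si-uc.323 replicate 1 beside the 3 controls on slide 1 and si-uc.323 replicates 2 and 3 on slide 2. The 75th percentile was 1182 to 1381 intensity units on slide 1 and 1718 to 1775 on slide 2, and 71.9% to 73.9% against 78.2% to 86.5% of probes were well above background. Correlations between arrays across features were 0.987 to 0.992 within si-uc.323 and 0.993 to 0.996 within si-scramble. All 9 tested cardiomyocyte markers were detected and none was called. The contractile genes Myh6 and Tnnt2 read 0.049 ± 0.13 and 0.011 ± 0.14 (log2 fold change ± SE). At an unadjusted p under 0.05, 4 of the 9 were lower and none higher (limma), beside 11.9% of all features lower and 16.1% higher at that threshold. These 4, Ryr2 (-0.46 ± 0.15, adjusted p = 0.1005), Myl3 (-0.34 ± 0.12, 0.112), Tnni3 (-0.34 ± 0.11, 0.114) and Pln (-0.29 ± 0.11, 0.138), had separate groups and values in the range of the cytochrome oxidase genes. The summed level of the 9 was 223 to 266 with si-uc.323 and 254 to 266 with si-scramble, in multiples of the array's 75th percentile. The part of these genes in the changes described below was not tested.

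**Figure D1:**
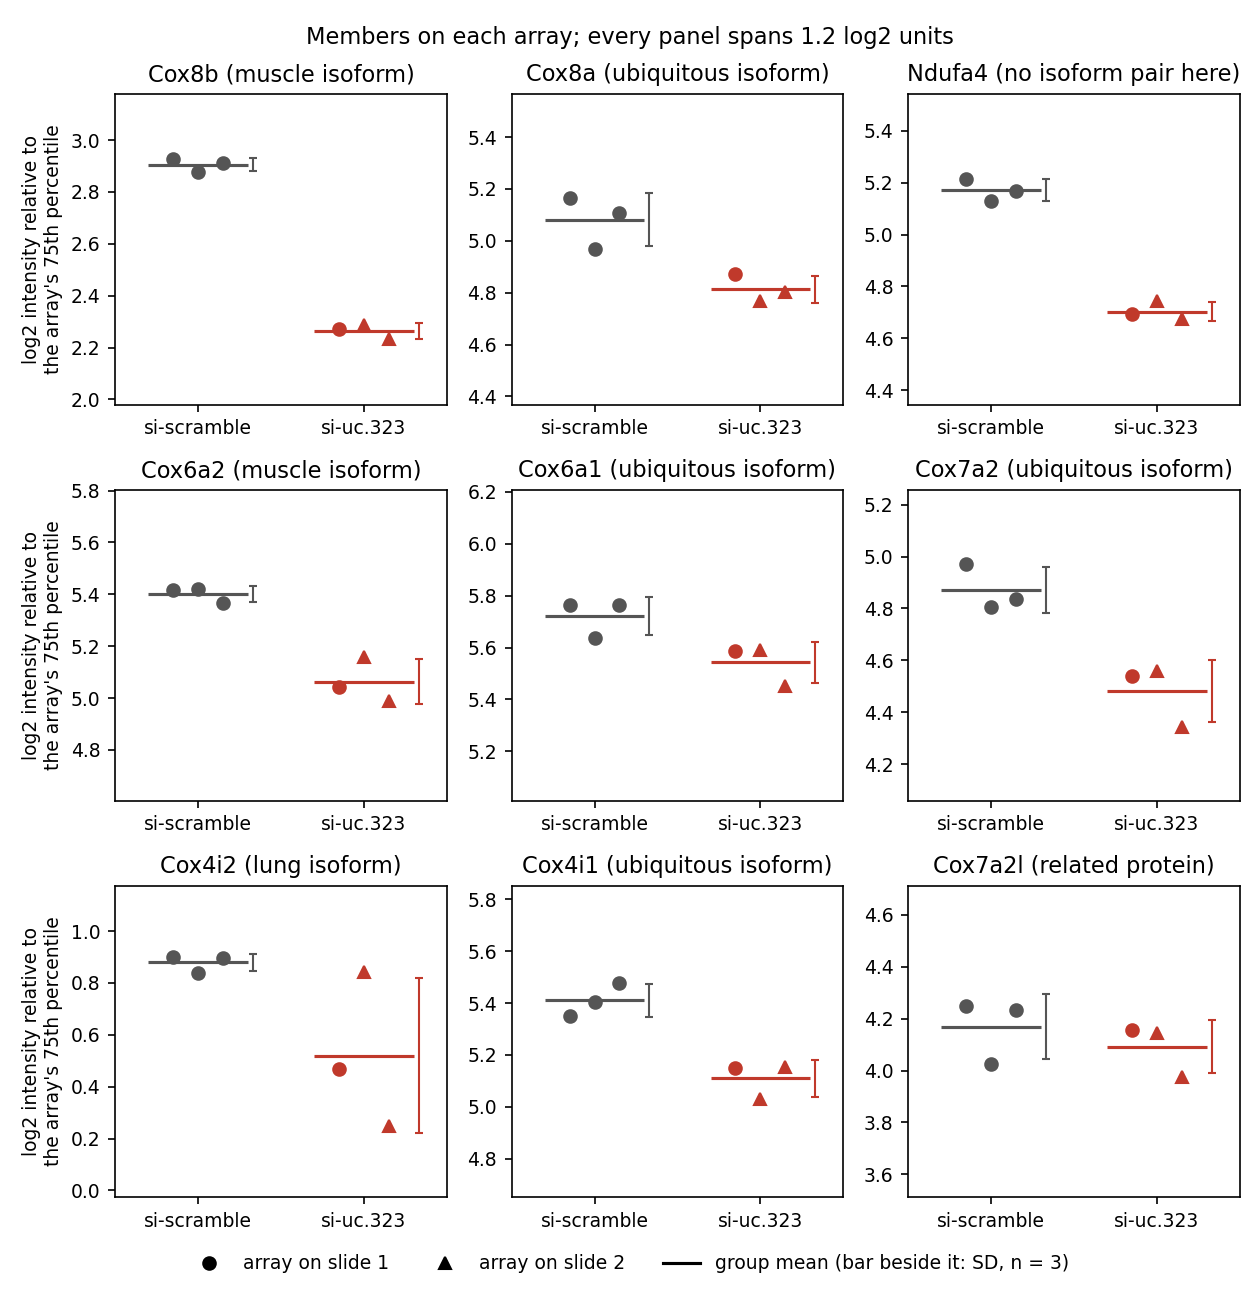
Log2 intensity relative to the array's 75th percentile for the 9 measured genes, 1 point per array, with circles for slide 1 and triangles for slide 2, the group mean as a line and its SD (n = 3) as a bar. The groups are separate in 7 panels and overlap in those of Cox4i2 and Cox7a2l.

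Cox8b, the muscle isoform of the small subunit 8, changed most. Its log2 level was 2.93, 2.88 and 2.91 in si-scramble replicates 1 to 3 and 2.27, 2.29 and 2.23 in si-uc.323 replicates 1 to 3. The groups stood far apart and each was tight, with SDs of 0.025 and 0.029. Cox8b fell by 0.64 on the log2 scale (SE 0.099, unadjusted 95% interval -0.87 to -0.41, limma adjusted p = 0.0261), which is 1.56-fold lower. The array of si-uc.323 on slide 1 read -0.63 against the si-scramble mean, and those on slide 2 read -0.62 and -0.67, so the difference was as large within slide 1.

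The ubiquitous isoform of the same subunit, Cox8a, changed less. Its probe is printed 10 times per array, and the SD between the spots used was 0.043 to 0.067 on each array. Its log2 level was 5.17, 4.97 and 5.11 in si-scramble and 4.87, 4.77 and 4.80 in si-uc.323. The groups did not overlap, but si-scramble replicate 2 lay close to the si-uc.323 arrays. The log2 fold change was -0.27 ± 0.11 (SE, n = 3 and 3 arrays; interval -0.52 to -0.01), and it did not pass (adjusted p = 0.166).

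Ndufa4 has no isoform partner among the 10 genes. Its log2 level was 5.22, 5.13 and 5.17 in si-scramble and 4.69, 4.74 and 4.67 in si-uc.323. Every si-uc.323 array was below every si-scramble array. Ndufa4 fell by 0.47 on the log2 scale (SE 0.10, interval -0.70 to -0.23, adjusted p = 0.0457), or 1.38-fold lower, and read -0.48 on the si-uc.323 array of slide 1.

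Both calls are close to the threshold in a design of this size. Leaving out si-scramble replicate 1, 2 or 3 gave Cox8b an adjusted p of 0.127, 0.102 or 0.151, and leaving out si-uc.323 replicate 1, 2 or 3 gave 0.0576, 0.0271 or 0.0461. For Ndufa4 the same values were 0.182, 0.153 and 0.218, then 0.0926, 0.0370 and 0.0644. The log2 fold changes themselves moved little, from -0.66 to -0.63 for Cox8b and from -0.49 to -0.45 for Ndufa4. When slide was a term of the fit, which leaves the comparison to the 1 si-uc.323 array of slide 1, the adjusted p was 0.186 for Cox8b and 0.259 for Ndufa4.

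**Figure D2:**
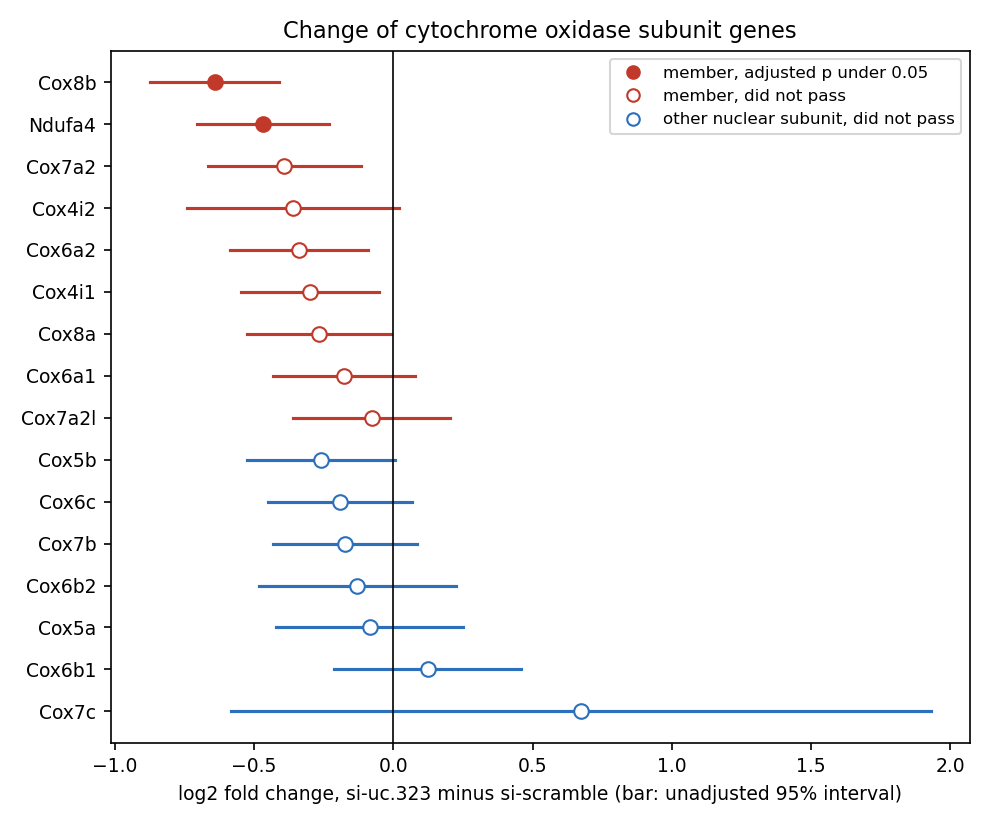
Log2 fold change, si-uc.323 minus si-scramble, with the unadjusted 95% interval of the limma fit, for the 9 measured genes (red) and the 7 other measured nuclear subunits (blue); filled points passed an adjusted p of 0.05. Cox8b (-0.64) and Ndufa4 (-0.47) are the filled points, and the intervals of neighbouring genes overlap.

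Subunit 6a binds adenine nucleotides and is the other subunit with both a muscle and a ubiquitous isoform measured. Cox6a2, the muscle isoform, had log2 levels of 5.42, 5.42 and 5.37 in si-scramble and 5.04, 5.16 and 4.99 in si-uc.323. These groups did not overlap. The change was -0.34 ± 0.11 (SE, n = 3 and 3 arrays; interval -0.59 to -0.09) and did not pass (adjusted p = 0.0967). Within slide 1 it was -0.36.

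Cox6a1, the ubiquitous isoform, had log2 levels of 5.77, 5.64 and 5.76 in si-scramble and 5.59, 5.59 and 5.45 in si-uc.323. Here the groups were separated by less than the spread within either of them. The change was -0.18 ± 0.11 (SE; interval -0.43 to 0.076; adjusted p = 0.323).

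Cox7a2, the ubiquitous isoform of subunit 7a, was read by 2 probes. The brighter gave 4.97, 4.81 and 4.84 in si-scramble and 4.54, 4.56 and 4.34 in si-uc.323. The other gave 2.95, 2.80 and 3.04 against 2.47, 2.24 and 2.46. On both probes all si-uc.323 arrays were the lower ones. The brighter changed by -0.39 ± 0.12 (SE, adjusted p = 0.0895). The other, with every probe tested on its own, changed by -0.54 ± 0.12 (adjusted p = 0.051). Neither passed, while the mean of the 2 probes gave -0.47 with an adjusted p of 0.0495.

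Cox4i1, the ubiquitous isoform of the largest nuclear subunit and a common loading control for mitochondria, had log2 levels of 5.35, 5.40 and 5.48 in si-scramble and 5.15, 5.03 and 5.15 in si-uc.323. The groups did not overlap, and the change of -0.30 ± 0.11 (SE; interval -0.55 to -0.052) did not pass (adjusted p = 0.123). Cox4i2, its lung and hypoxia counterpart, read 0.90, 0.84 and 0.90 in si-scramble and 0.47, 0.84 and 0.25 in si-uc.323. Replicate 2 of si-uc.323 lay within the control range, and the others lay below it. The change was -0.36 ± 0.16 (SE, interval -0.74 to 0.022, adjusted p = 0.199). Without si-uc.323 replicate 1, 2 or 3 it was -0.33, -0.52 or -0.22 (limma adjusted p = 0.310, 0.0421 or 0.359). The highest limma adjusted p with a single array left out was 0.428.

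Cox7a2l, the supercomplex factor, showed the smallest difference. Its log2 level was 4.25, 4.03 and 4.23 in si-scramble and 4.16, 4.14 and 3.98 in si-uc.323, so the groups overlapped. The change was -0.077 ± 0.12 (SE; interval -0.36 to 0.20; adjusted p = 0.711). It was 0.0036 with normexp background correction and 0.0080 with cyclic loess normalization, so no direction is given for it.

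The isoforms of a subunit were then set against each other within each array, which removes any shift common to both probes. In the subunit 8 pair, Cox8b minus Cox8a, the 3 si-uc.323 arrays lay -0.42, -0.31 and -0.39 from the si-scramble mean, while the si-scramble arrays lay at -0.064, 0.086 and -0.022. The groups were well separated: the muscle isoform was lower relative to the ubiquitous one by 0.37 on average, a ratio of 0.771 times that in si-scramble, with SDs of 0.061 in si-uc.323 and 0.078 in si-scramble. The 2-sided exact permutation p was 0.10, the smallest that 3 against 3 arrays can give, and 0.15 adjusted over the 3 pairs tested.

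In the subunit 6a pair, Cox6a2 minus Cox6a1, the si-uc.323 arrays lay -0.22, -0.11 and -0.14 from the si-scramble mean and the si-scramble arrays at -0.026, 0.10 and -0.079. The lowest control array came close to the highest si-uc.323 array. The mean change was -0.16, a ratio of 0.895 times that in si-scramble, with SDs of 0.056 and 0.094 (exact permutation p = 0.10, adjusted 0.15). For subunit 4, Cox4i2 minus Cox4i1, the si-uc.323 arrays lay at -0.15, 0.34 and -0.37, on both sides of the controls. The mean change was -0.059 (exact permutation p = 0.80), and it was 0.097 without si-uc.323 replicate 3. No value could be had for subunit 7a, for want of Cox7a1.

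**Figure D3:**
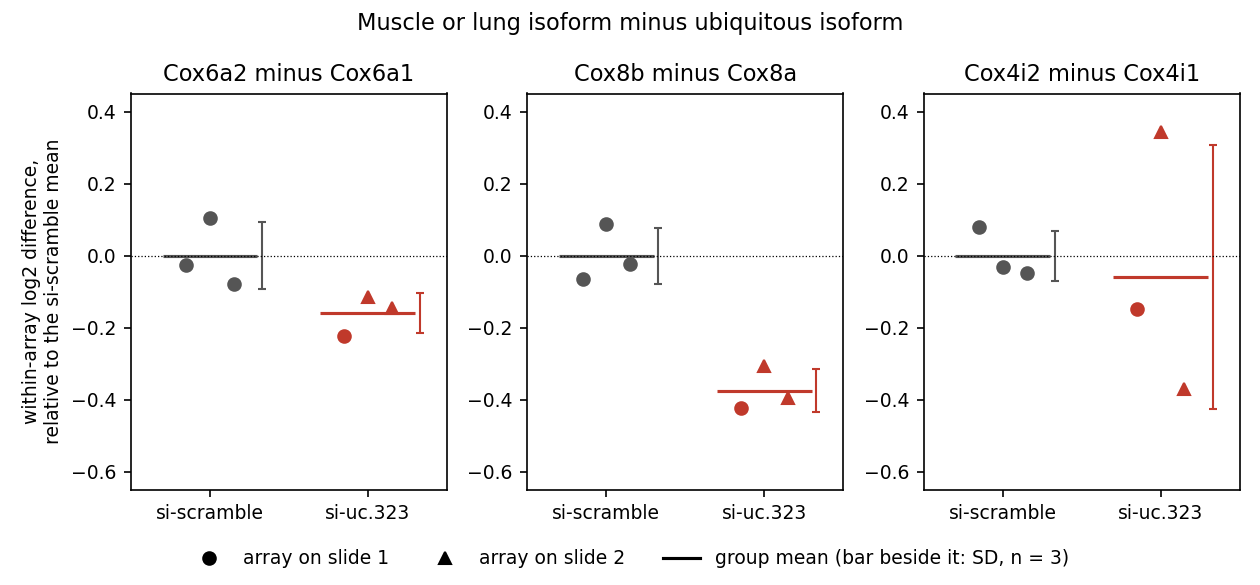
Within-array log2 difference between the isoforms of a subunit, centred on the si-scramble mean, 1 point per array (circles slide 1, triangles slide 2), with group means as lines and SDs (n = 3) as bars. The si-uc.323 arrays of the subunit 8 pair sit between -0.42 and -0.31, below all controls, and those of the subunit 4 pair spread from -0.37 to 0.34.

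The single-probe values of the 9 genes ran together across the 6 arrays to different degrees. Ndufa4 followed Cox8b most closely, with a Pearson r of 0.997, and Cox6a2 followed it with 0.964, while Cox7a2l followed it least, with 0.441. These correlations describe 6 arrays that include the group difference. Among the 11579 other named genes, those whose 6 values resembled Cox8b most were Txlnb (r = 0.9989), Vom1r72 (0.9984), Mgst3 (0.9980), Itga10 (0.9976) and Hist1h2bo (0.9975). All 5 were lower with si-uc.323, by between -0.57 for Vom1r72 and -1.04 for Hist1h2bo. Their direction followed from picking them by likeness to Cox8b and is no separate result.

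The other nuclear-encoded subunits of the complex gave no call. Of 8 genes, 7 were tested and none was called (limma; none at an unadjusted p under 0.05 either), with 5 negative values and -0.13 as the median log2 fold change. The lowest adjusted p values were those of Cox5b (-0.26 ± 0.11, 0.184), Cox6c (-0.19 ± 0.11, 0.297) and Cox7b (-0.17 ± 0.11, 0.342), all structural subunits. Cox7c, singled out after its values were seen, lay -0.63, 1.68 and 0.97 from the si-scramble mean on the 3 si-uc.323 arrays, so that the value of slide 1 and those of slide 2 had opposite signs. Cox8c was not well above background on any array. The catalytic subunits encoded by mitochondrial DNA were matched to no probe and were not analysed here.

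Genes that build the complex had mixed signs. Of 29 assembly factors, 21 were tested, 6 were negative, the median was 0.14, and none was called (limma). At an unadjusted p under 0.05, 6 of the 21 were higher and 2 lower (limma), beside 16.1% and 11.9% of all features. Sco1, which delivers copper to the catalytic core, read 0.57 ± 0.15 (adjusted p = 0.0645). Cox15, an enzyme of haem a synthesis, read 0.37 ± 0.11 (adjusted p = 0.0938), and Higd2a, an assembly and supercomplex factor, read -0.34 ± 0.10 (adjusted p = 0.0875). Cytochrome c itself, Cycs, read -0.21 ± 0.14 (adjusted p = 0.384), and its testis form Cyct read 0.10 ± 0.28.

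Among 16 factors known to act on promoters of cytochrome oxidase genes, 14 were tested, 1 fell and none rose, with a median of -0.19. Over all features 2.43% were called lower and 3.15% higher. At an unadjusted p under 0.05, 5 of the 14 were lower and 1 higher (limma), beside 11.9% and 16.1% of all features. Mef2a, a muscle transcription factor that binds the MEF2 motif, fell by 0.59 on the log2 scale (SE 0.12, adjusted p = 0.0417). Its si-uc.323 arrays lay -0.45, -0.68 and -0.64 from the si-scramble mean. The related Mef2d read -0.50 ± 0.12 (adjusted p = 0.0583), and the nuclear receptor Esrra, a regulator of mitochondrial genes, read -0.53 ± 0.12 (adjusted p = 0.0553), neither passing. No factor of this list was called when si-scramble replicate 1, 2 or 3 or si-uc.323 replicate 1 or 3 was left out. Over all features, 0, 19, 0, 416 and 433 were called in those settings. Without si-uc.323 replicate 2, 3 factors were called, and 2644 of 20118 features.

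Muscle isoforms of other energy enzymes gave a reference for the size of these changes. Of 12 such genes, all tested, 5 fell and none rose, beside 2.43% of all features called lower and 3.15% called higher. At an unadjusted p under 0.05, 9 of the 12 were lower and none higher (limma), beside 11.9% of all features lower. The median log2 fold change was -0.67. For the 9 cytochrome oxidase genes the median was -0.34, but of these only Cox8b (-0.64) and Cox6a2 (-0.34) are muscle isoforms. The 5 were the glycolytic enzymes Eno3 (muscle enolase, -0.91 ± 0.12) and Pgam2 (muscle phosphoglycerate mutase, -0.75 ± 0.12), Ckm, the muscle creatine kinase (-0.89 ± 0.10), Cpt1b, the muscle carnitine palmitoyltransferase (-0.86 ± 0.14), and Ampd1, the muscle AMP deaminase (-0.996 ± 0.14). Their adjusted p values lay between 0.0174 and 0.0267. Of the 15 ubiquitous counterparts, none was called (limma; 3 were lower at an unadjusted p under 0.05, as 11.9% of all features were), with a median of -0.20, and the lowest adjusted p was that of Ampd3 (-0.61 ± 0.18, 0.0934), followed by Pfkp (-0.39 ± 0.14, 0.129) and Pfkl (-0.39 ± 0.16, 0.166). The difference between the lists was not tested. The 5 calls became 0 without si-scramble replicate 1, 2 or 3, where 0, 19 and 0 features were called in all. They became 3 without si-uc.323 replicate 3, where 433 features were called. They were 9 with normexp, 8 with a median shift or cyclic loess, and 0 with the slide as a block or on slide 1 alone.

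**Figure D4:**
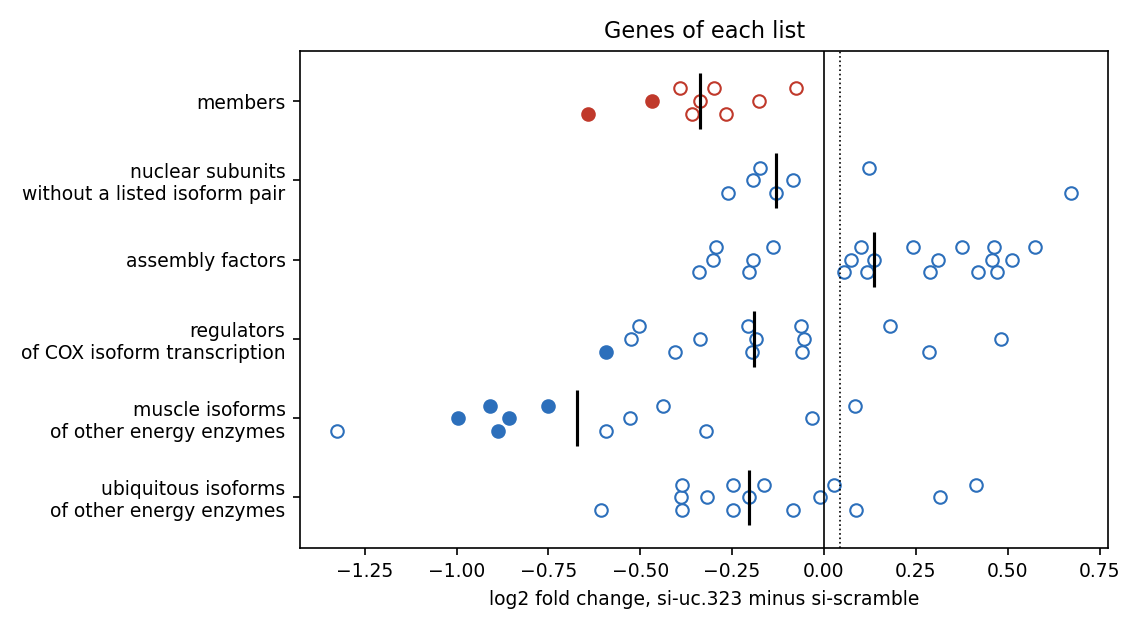
Log2 fold change, si-uc.323 minus si-scramble, of each tested gene in 6 lists; filled points passed an adjusted p of 0.05, the black bars are list medians and the dotted line is the median of all features (0.04). The 9 cytochrome oxidase genes (red), muscle and other isoforms together, have a median of -0.34. The muscle isoforms of other energy enzymes have -0.67 and the assembly factors 0.14.

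Markers of other cell types were read on the same arrays, as levels summed in multiples of the array's 75th percentile. Of 8 tested fibroblast markers 1 rose, Postn (0.69 ± 0.12, adjusted p = 0.0312), beside 3.15% of all features called higher. The summed level of the 8 was 126 to 157 with si-uc.323 and 124 to 134 with si-scramble. The summed level of 9 pericyte and smooth muscle markers was 9.80 to 11.3 against 9.52 to 10.1, and none was called. That of 6 endothelial markers was 5.60 to 8.61 against 11.1 to 12.5, none called, a sum that the bright probe of Kdr dominates. Kdr read -0.76 ± 0.20 (adjusted p = 0.068) and Tek 0.46 ± 0.19 (adjusted p = 0.165), so the endothelial markers did not share a sign. Tie1 had a positive value too (adjusted p = 0.109), but none of the 3 controls read it well above background. Of 6 leukocyte markers none was called (14.0 to 18.2 against 15.8 to 16.4), and of 2 tested brown fat markers none was called (9.54 to 13.5 against 12.0 to 12.9). The 2 tested, Cidea (-0.22 ± 0.16, adjusted p = 0.404) and Pparg (0.46 ± 0.16, 0.114), were well above background on all 3 arrays of both groups. Cidea was bright, with a mean log2 level of 3.63 in si-scramble and 3.42 in si-uc.323. Ucp1, the defining gene of brown fat, a tissue that also carries Cox7a1 and Cox8b, was not well above background on all 3 arrays of either group. At an unadjusted p under 0.05, 2 fibroblast markers were higher, and 2 pericyte and smooth muscle markers higher and 1 lower (limma). By the same measure 2 endothelial markers were higher and 1 lower, 1 leukocyte marker lower and 1 brown fat marker higher. Over all features 16.1% were higher and 11.9% lower at that threshold. The 2 higher endothelial markers were Tek and Tie1, and Tie1 passed the background filter only through the si-uc.323 arrays. The part of these cells in the changes of the cytochrome oxidase genes was not tested.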

How the data were processed

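Total RNA of 6 cultures, 3 per group by sample title, was read on 1-colour Agilent arrays with the dye Cy3, per the labels' protocols. Per the submitters' processing notes, the authors read the scans with Feature Extraction 11.0.1.1. Per the file headers, the deposited scanner files give linear spot intensity after background subtraction and spatial detrending of each array, with no normalization across arrays. The deposited series table holds log2 values with equal quartiles in all 6 columns. How they were made is not given in the sources used here, and they served as an alternative. For Cox8b they gave nearly the log2 fold change of quantile normalization (-0.571 and -0.572), so these alternatives are not separate checks.

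Control spots and outlier spots (marked as uneven or as deviating from their replicates, 322 to 594 of the 42877 on an array) were left out. The 75th percentile of an array's log2 intensity was subtracted from every spot, and repeated spots of 1 probe were then averaged. Probes had to be well above background on every array of si-uc.323, of si-scramble or of both. Genes were named by unversioned accession through the RefSeq gene names of GRCr8. Of 30367 probes, 18005 matched 1 gene, 0 several and 12362 none. Each gene was represented by its brightest probe, with unnamed probes tested singly, giving 19921 features with 11580 named genes. Slides were read from scan identifiers shared in the file headers.

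The group comparison used limma 3.58.1 (lmFit, then eBayes, no covariates) under R 4.3.3, with Benjamini-Hochberg adjustment over all features and a threshold of 0.05. Every log2 fold change is the si-uc.323 mean less the si-scramble mean, and errors are SEs of the fit unless SD is written. The change of each isoform pair was tested by a 2-sided exact permutation over arrays and adjusted over 3 pairs; the fourth planned pair could not be formed. The fit was tested on simulated data. Figures used matplotlib 3.10.9 in Python 3.11.15.

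The genes named are the 10 isoform genes, the called members of each list or up to 3 with the lowest adjusted p, and the 5 genes most correlated with Cox8b. Myh6 and Tnnt2 are named as defining genes of cardiomyocytes; the other cell type markers named, and Cox7c, were chosen after their values were seen. The isoform genes and the lists were chosen with earlier results of these data known, so no list count is independent evidence. Alternatives were normexp on median spot intensity (offset 50), quantile normalization, centring on the median, the deposited series values, other background filters, other treatments of probes, array weights, a prior both trended and robust, the replicate number or the slide as a block, and 1 array left out at a time. Cyclic loess was added after the data were seen. The number of arrays limits the precision.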

Additional observations from a re-analysis of the deposited data

How the results depend on the processing

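Of the 9 measured genes, 8 kept a negative log2 fold change under all 20 alternatives, and Cox7a2l turned to 0.0036 with normexp background correction and 0.0080 with cyclic loess normalization. Several of the 20 could not change a sign. The other background filters, the prior and the replicate block left these log2 fold changes as reported. So did the other treatments of probes, except the mean over probes for Cox7a2. The slide as a block gave the same values as the slide of the controls alone. Quantile normalization and the series values nearly coincided, so the 20 are not separate checks of sign. The median of the 9 genes ranged from -0.44 with a median shift, which moved the median of all features from 0.04 to -0.06, to -0.23 with cyclic loess. With normexp the median of all features was -0.07 and that of the 9 genes -0.35. The share of higher genes among all called features was 43.9% with normexp, 44.2% with quantile normalization, 44.3% on the series values and 45.7% with cyclic loess.

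Of the isoform genes, 2 were called as reported. It was 1 (Cox8b) with quantile normalization, on the series values and with cyclic loess, and 6 with array weights, a setting that called 5265 features in all. It was 0 with no background filter, where no feature was called, with the slide as a block and on slide 1 alone, where 8 and 48 features were called, and it was 0 to 3 when single arrays were left out. With the replicate number as a block it was also 0 (adjusted p = 0.053 for Cox8b and 0.0925 for Ndufa4). The same-numbered arrays' deviations correlated at 0.20, 0.39 and -0.12, so the numbers were not taken to pair samples, and that block called 660 features, 569 of them among the 1113 called as reported. Of the other cytochrome oxidase genes none was called as reported, 1 with normexp, 1 with the mean over probes and 1 with a trended and robust prior. It was 8 with array weights and 0 to 4 when single arrays were left out. Leaving out single arrays called 0 to 2644 features in all.

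The change of Cox8b minus Cox8a ranged from -0.42 to -0.33 and that of Cox6a2 minus Cox6a1 from -0.22 to -0.11. These ranges cover the 17 alternatives in which the pairs were computed (not the prior, the array weights or the slide as a block). Several of the 17 could not move these values. A median shift cancels within an array, each of these genes has a single probe, and the replicate block keeps the same means. Leaving out single arrays gave -0.41 to -0.33 and -0.20 to -0.11, and -0.26 to 0.097 for Cox4i2 minus Cox4i1, the positive value without si-uc.323 replicate 3. The 5 calls among muscle isoforms of other energy enzymes were 8 with a trended and robust prior or array weights and 0 with no background filter. The 1 call among the promoter factors was 3 with normexp or a trended and robust prior, 5 with array weights, 2 with a median shift, quantile normalization, the series values, cyclic loess or a filter on all 6 arrays, and 0 with no background filter, either block or slide 1 alone. Array weights gave 5 calls among the non-muscle counterparts. The causes of these shifts were not tested. In the replicate block the pair values are the same means, with a smallest possible exact permutation p of 0.25.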
